A study of Mus musculus with 22 samples.

Results

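The BCL2 family decides at the mitochondrion whether a cell lives or dies, and 10 of its genes were followed here in a mouse leukemia with and without NFKBIE: the survival genes Bcl2, Bcl2l1, Mcl1, Bcl2a1b and Bcl2a1d, the BH3-only death genes Bcl2l11, Bbc3 and Pmaip1, and the effectors Bax and Bak1. The genes were chosen by symbol, and every transcript that the GENCODE mouse annotation assigns to them was taken, which gave 34 of the 62492 transcripts in the table and, once summed per gene, 10 of 17023 genes. The cells were TCL1-355 TKO, a transplantable murine line from the Eμ-TCL1 model of chronic lymphocytic leukemia, in which a human oncogene driven in B cells makes a CD5+ B cell leukemia, with further lesions that include CDKN2A and CDKN2B in all groups. NFKBIE-ko cells had received Cas9 protein with guide RNA against NFKBIE, which encodes an inhibitor of NF-κB, and NFKBIE-wt cells had received Cas9 without that guide. Each genotype was grown separately in C57BL/6 mice for 21 days, then injected intraperitoneally into 5 recipients, where spleen and peritoneal cavity (PC) were sampled 10 days later, or taken from spleens of mice and cultured for 2 weeks (vitro). Each of the 4 groups from mice held 4 libraries and each of the 2 culture groups 3, which made 22 libraries of bulk RNA in 6 groups. Because each genotype was 1 separately propagated line, genotype and propagation cannot be told apart. The study states that the cells from spleen and PC were left unpurified, so that non-leukemic cells could be analysed too. Fewer cells of a type and less RNA per cell thus cannot be told apart either.

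As background, the survival proteins of this family hold Bax and Bak1 in check on the outer mitochondrial membrane, BH3-only proteins bind and neutralise the survival proteins or switch on the effectors, and freed Bax and Bak1 open pores that release cytochrome c. Chronic lymphocytic leukemia cells are known for high BCL2 and for their dependence on it and on MCL1. Bcl2l1 (BCL-xL) and the Bcl2a1 genes (A1) are textbook targets of NF-κB in B cells and myeloid cells.

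In GRCm39 the genes lie as follows. Bcl2 spans chr1:106465908-106642060 on the minus strand and Mcl1 chr3:95566026-95570487 on the plus strand. Bcl2l1 spans chr2:152622582-152673655 on the minus strand, and Bcl2l11 (BIM) lies on the same chromosome at chr2:127967958-128004476 on the plus strand. Bbc3 (PUMA) spans chr7:16042318-16052130 on the plus strand, Bax chr7:45111015-45116325 on the minus strand and Bak1 chr17:27238784-27247983 on the minus strand.

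The Bcl2a1 genes are near-identical copies on chromosome 9, Bcl2a1b at chr9:89081262-89089889 (plus strand), Bcl2a1d at chr9:88605338-88613967 (minus strand) and another measured copy, Bcl2a1a, at chr9:88838953-88844472 (plus strand). Their coding sequences are shown because they set how well reads can be assigned to each copy. The first 60 coding bases, which lie within 1 exon in each gene, are given below with capitals at the positions where the 3 copies differ.
Bcl2a1a, chr9:88839104-88839163, plus strand: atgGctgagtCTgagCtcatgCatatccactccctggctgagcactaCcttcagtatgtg
Bcl2a1b, chr9:89081413-89081472, plus strand: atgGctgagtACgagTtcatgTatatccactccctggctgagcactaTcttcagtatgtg
Bcl2a1d, chr9:88613713-88613772, minus strand: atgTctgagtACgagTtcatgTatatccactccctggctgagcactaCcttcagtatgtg
These windows hold 6 differing positions. Over the whole coding sequence of 516 bases, Bcl2a1b and Bcl2a1d differ at 6 positions (98.8% identity), Bcl2a1a and Bcl2a1d at 7 (98.6%), and Bcl2a1a and Bcl2a1b at 11 (97.9%). Between 56.3% and 78.1% of the 31-base words of one copy's whole transcript were also found in another's. The split of reads between these copies is thus uncertain, and their sum is given beside them.

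Bcl2l11 makes BIM proteins of several lengths, and 2 of its transcripts carry a result described further on. The long transcript, which the annotation marks as canonical (ENSMUST00000110341), has 591 coding bases, stop codon included. The short transcript (ENSMUST00000089634) has 276, of which 214 lie at the same positions as in the long one and 62 at its end do not. Its coding part ends at chr2:127971618. It thus lacks the later coding blocks of the long transcript, chr2:127989005-127989114 and chr2:128000151-128000249. What its protein does was not tested. A point where the transcripts part is shown with 30 shared bases in lower case, chr2:127970905-127970934 on the plus strand, and the next 30 in capitals, chr2:127971557-127971586 for the short and chr2:127989005-127989034 for the long transcript.
Bcl2l11, short transcript: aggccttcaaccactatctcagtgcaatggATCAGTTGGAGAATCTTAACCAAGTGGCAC
Bcl2l11, long transcript: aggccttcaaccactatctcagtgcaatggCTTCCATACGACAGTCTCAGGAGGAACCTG
The short transcript thus joins the shared exon to another exon, upstream of the one used by the long transcript, so reads over this junction tell the transcripts apart. They also differ before it, since the short transcript joins base 127970676 to 127970845, where the long one runs on.

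Library totals were between 24036763 and 26581304 estimated reads, so depth was alike throughout, and values are given as counts-per-million (CPM). B cell markers summed to 1750 to 3860 CPM in the 22 libraries, with none of the defining genes at 0 in the doubted libraries named next. The markers of 2 libraries went against their labels. The library labelled NFKBIE-wt spleen replicate 4 held 6.82 CPM of erythroid and 0.153 CPM of neutrophil markers, against 282 to 2050 and 58.9 to 375 in the other NFKBIE-wt spleens, with 4 of 8 erythroid and 6 of 9 neutrophil markers at 0. The library labelled NFKBIE-wt vitro replicate 3 held 1420 and 190 CPM, against 11.7 and 20.5 (erythroid) and 3.51 and 0.076 (neutrophil) in the other NFKBIE-wt cultures. Over 9793 genes the first correlated at r = 0.989 with the mean of the other NFKBIE-wt cultures and 0.924 with its own group, and the second at 0.986 with the mean of the other NFKBIE-wt spleens and 0.912 with its own group. Both were kept under their labels, and genotype and compartment results that rest on them are followed by the values without them. Nfkbie RNA itself was lower in NFKBIE-ko than NFKBIE-wt cells in PC (47.1 to 65.1 against 67.8 to 92.6 CPM), but not by the test in spleen (adjusted p = 0.729) or vitro (adjusted p = 0.516), and since an edit need not lower RNA, its level does not check the labels.

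All 10 genes were measured in all 22 libraries, and the plot of CPM by library shows them one by one.

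**Figure D1:**
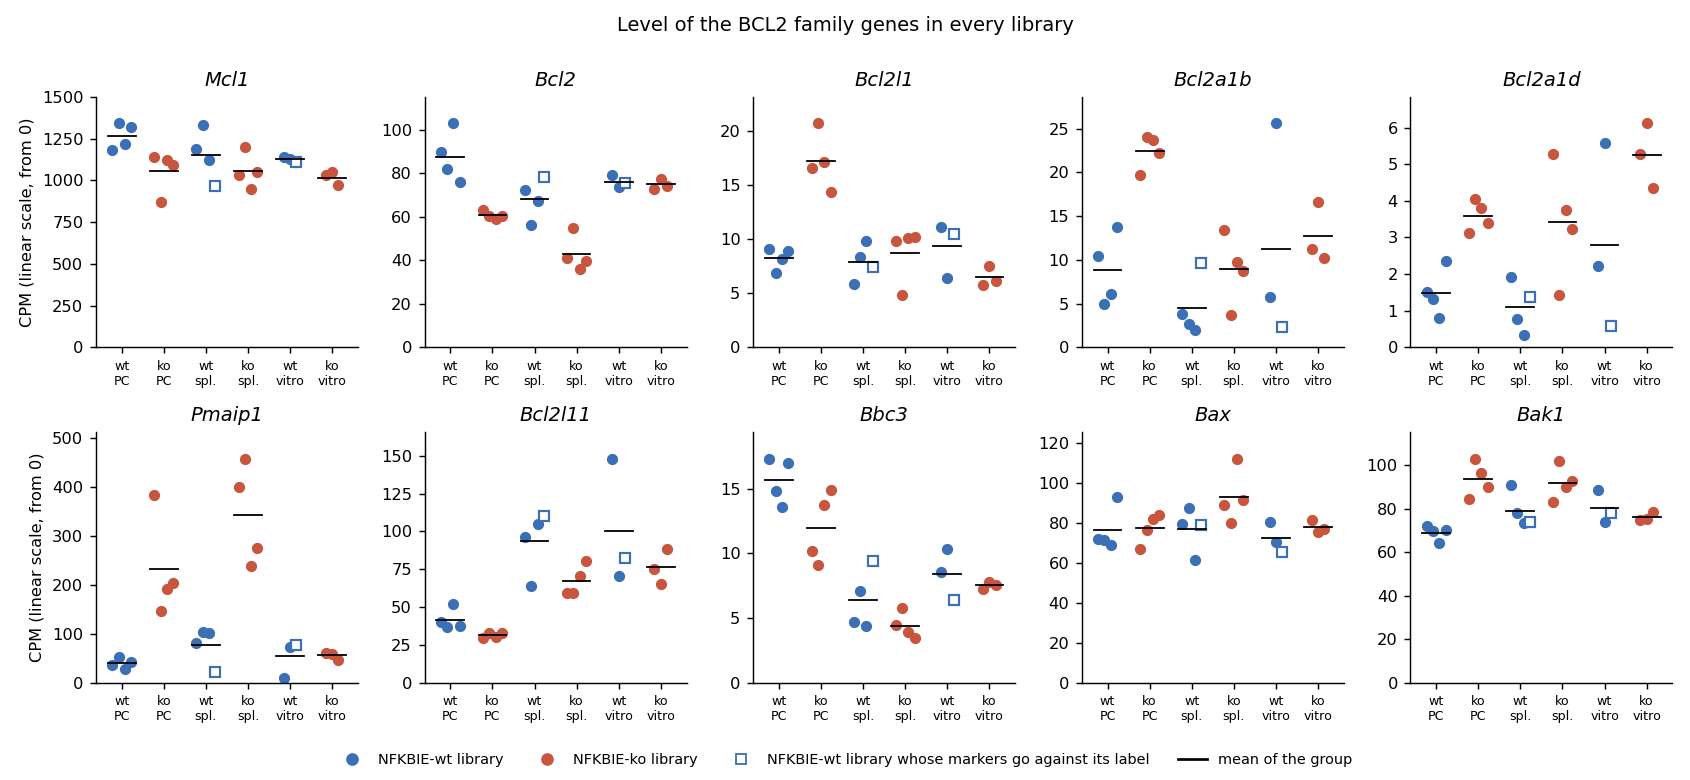
CPM of each of the 10 genes (y axis, linear, from 0) in every library of the 6 groups (x axis), with a line at each group mean. Open squares mark the 2 NFKBIE-wt libraries whose markers go against their labels. Pmaip1 reached 147 to 458 CPM in the 8 NFKBIE-ko libraries from mice and at most 104 CPM elsewhere.

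Compared per length, as transcripts-per-million (TPM) computed from the estimated counts and transcript lengths, the family's levels were ordered much alike in the NFKBIE-wt groups and in culture. Mcl1, a short-lived survival protein, was the highest of the 10 in all 6 groups, with mean TPM from 511 to 621 and no overlap with the next gene. Bax came next in NFKBIE-wt PC (130 TPM), NFKBIE-wt spleen (143 TPM), NFKBIE-wt vitro (142 TPM) and NFKBIE-ko vitro (152 TPM), without overlap with Bak1, which stood at rank 3 in those groups at 52.2 to 70.9 TPM. In NFKBIE-ko cells from mice Pmaip1 moved from rank 4 or 5 to rank 2, at 145 ± 71.9 TPM (SD, n = 4) in PC and 225 ± 73.1 TPM in spleen, where its range overlapped that of Bax (133 ± 7.97 and 168 ± 18.6 TPM). Bcl2 had 11.3 to 20.9 TPM and Bcl2l1, the gene of BCL-xL, 5.37 to 11.8 TPM in the 6 groups. In NFKBIE-wt spleen the ranges of neighbouring genes overlapped from rank 3 down to rank 10, so the order below Bax was not resolved there. Without the 2 doubted libraries, a choice made after seeing the data, Mcl1, Bax and Bak1 kept ranks 1 to 3 in NFKBIE-wt spleen (637, 138 and 68.6 TPM, n = 3) and NFKBIE-wt vitro (631, 149 and 69.7 TPM, n = 2), and in that spleen group Bcl2l11 (30.5 to 61.8 TPM), Bcl2 (13 to 19.2 TPM) and Bcl2l1 (5.2 to 8.74 TPM) did not overlap.

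**Figure D2:**
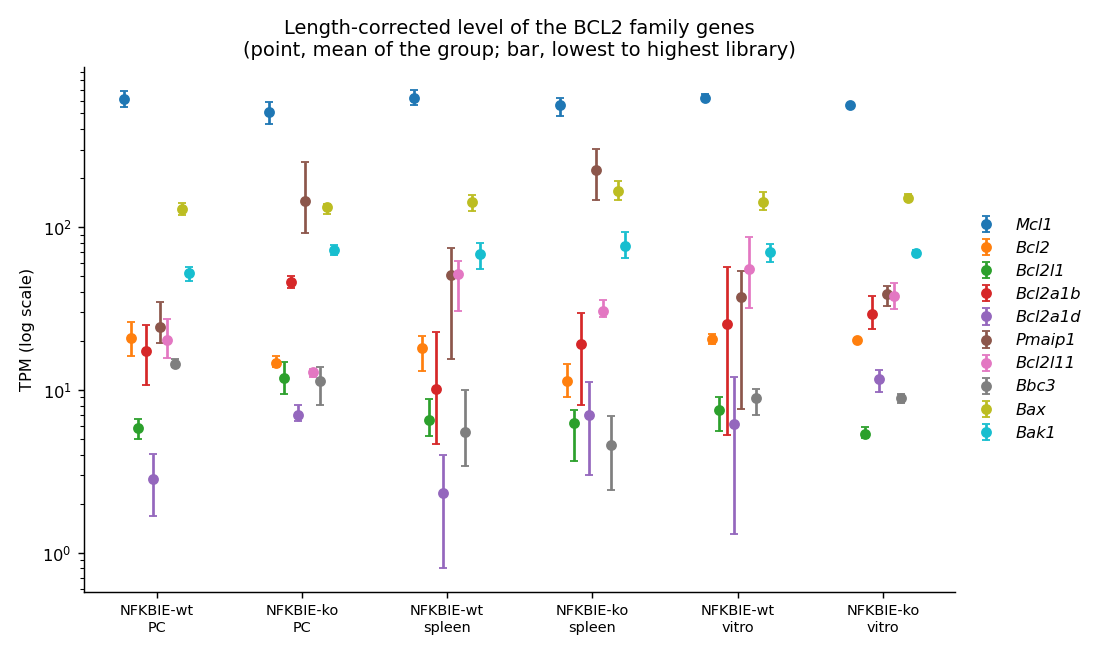
TPM of the 10 genes (log axis) in the 6 groups, with points at the group mean and bars from the lowest to the highest library. Mcl1 stands highest in every group, and Pmaip1 stands beside Bax in NFKBIE-ko PC and spleen, with overlapping bars.

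The first question was how loss of NFKBIE bears on these genes in the peritoneal cavity, where the fit across 12642 genes called 43.4% of all genes. There 8 of the 10 genes passed the test (adjusted p below 0.05), 5 higher and 3 lower in NFKBIE-ko cells, against 22.5% and 20.9% of all genes in those directions. All 8 had ranges that did not overlap between genotypes, as did 41.7% of all genes. The median log2 change of the 10 was 0.22, beside -0.01 over all genes. With the study's added requirement of more than a doubling or halving (13.4% of all genes) 4 of the 10 passed: Pmaip1, Bcl2a1b, Bcl2a1d and Bcl2l1. In the fit of all 22 libraries, where the 6 groups share 1 estimate of the spread, 4 of the 10 passed, beside 23.6% of all genes, and the calls of Mcl1 (adjusted p = 0.0681), Bcl2a1b (0.101), Bcl2a1d (0.0992) and Bcl2l11 (0.181) were lost.

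Among survival genes in PC, Bcl2 fell and Bcl2l1 rose. Bcl2 had 89.9, 82.1, 103 and 76 CPM in the 4 NFKBIE-wt libraries and 63.4, 60.5, 59.2 and 60.6 CPM in the 4 NFKBIE-ko libraries. Every NFKBIE-ko value lay below every NFKBIE-wt value, and the log2 change was -0.53 ± 0.09 (SE, adjusted p = 0.000892, edgeR quasi-likelihood test). Bcl2l1 had 9.08, 6.92, 8.14 and 8.91 CPM in NFKBIE-wt and 16.6, 20.7, 17.1 and 14.4 CPM in NFKBIE-ko libraries. Here every NFKBIE-ko value was the higher, with a log2 change of 1.05 ± 0.14 (adjusted p = 0.00017). Mcl1 had 1180, 1340, 1220 and 1320 CPM in NFKBIE-wt and 1140, 871, 1120 and 1090 CPM in NFKBIE-ko libraries. The ranges were next to each other without overlap, the log2 change was -0.27 ± 0.09 (adjusted p = 0.0418), and the call was lost on leaving out NFKBIE-wt PC replicate 1, 2 or 4 or NFKBIE-ko PC replicate 2, 3 or 4 (adjusted p from 0.0546 to 0.0947 for Mcl1).

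The Bcl2a1 survival genes rose together in PC. Bcl2a1b had 10.4, 4.96, 6.12 and 13.8 CPM in NFKBIE-wt and 19.7, 24.1, 23.7 and 22.2 CPM in NFKBIE-ko libraries. Bcl2a1d had 1.51, 1.32, 0.79 and 2.35 CPM in NFKBIE-wt and 3.12, 4.04, 3.79 and 3.4 CPM in NFKBIE-ko libraries. In both genes the genotypes did not overlap, and the log2 changes were 1.34 ± 0.29 (adjusted p = 0.00516) and 1.26 ± 0.29 (adjusted p = 0.00535). The other measured copy, Bcl2a1a, which is not among the 10, rose by a log2 value of 2.34 (adjusted p = 0.00198) from 0.393 to 2.01 CPM. Summed over the 3 copies, so that the split between them does not matter, the log2 change was 1.38 ± 0.28 (adjusted p = 0.00429), from 10.7 ± 4.86 to 28 ± 2.39 CPM (SD, n = 4).

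Macrophages also express Bcl2a1 genes, and their markers moved with the genotype in PC. The 8 macrophage and monocyte markers summed to 1710, 553, 1020 and 1450 CPM in NFKBIE-wt PC and to 3770, 5550, 4200 and 4540 CPM in NFKBIE-ko PC, and 8 of 8 rose. The T cell markers summed to 171 to 182 CPM in NFKBIE-ko against 56.8 to 76.9 CPM in NFKBIE-wt PC (6 of 8 higher, 1 lower), the neutrophil markers to 30.3 to 45.8 against 137 to 410 CPM (5 of the 7 tested lower), and the B cell markers to 3690 to 3860 against 3130 to 3330 CPM. Cytotoxic and NK cell markers summed to 36.1 to 61.8 CPM in NFKBIE-ko against 12.8 to 35.6 CPM in NFKBIE-wt PC (5 of 6 higher, 1 lower), and plasma cell markers to 328 to 374 against 387 to 532 CPM (2 of the 5 tested lower). The part of these cells in the PC values of the 10 genes was not tested. In the 3 NFKBIE-ko cultures, where the macrophage markers summed to 33.1 to 41.8 CPM, Bcl2a1b was measured at 10.2 to 16.6 CPM.

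Of the BH3-only genes in PC, Pmaip1 (NOXA), which binds and helps degrade MCL1, changed most. It had 35.3, 52.6, 29 and 41.8 CPM in NFKBIE-wt and 385, 147, 192 and 205 CPM in NFKBIE-ko libraries. The lowest NFKBIE-ko library was above the highest NFKBIE-wt library, and the log2 change was 2.55 ± 0.34 (adjusted p = 0.000599), the largest of the 10. Bcl2l11, whose protein BIM binds all the survival proteins, had 40.3, 36.9, 52.1 and 37.5 CPM in NFKBIE-wt and 29.7, 33.2, 30.4 and 33.1 CPM in NFKBIE-ko libraries. Summed over its transcripts it fell without overlap, with a log2 change of -0.41 ± 0.11 (adjusted p = 0.0125). Of the transcripts tested, only the short one, which lacks later coding blocks of the long one, was called (-1.55 ± 0.21, adjusted p = 0.00281). The long one was at -0.13 ± 0.14 (adjusted p = 0.633), and the difference between the 2 was not tested. Bbc3 (PUMA) had 17.3, 14.8, 13.6 and 17 CPM in NFKBIE-wt and 10.2, 9.07, 13.7 and 14.9 CPM in NFKBIE-ko libraries. Its ranges overlapped and it did not pass the test (log2 change -0.40 ± 0.16, adjusted p = 0.0716), except without NFKBIE-ko PC replicate 4 (-0.52, adjusted p = 0.0306 for Bbc3).

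The effectors, which form the pore, differed from each other in PC. Bak1 had 72, 69.7, 64.2 and 70.3 CPM in NFKBIE-wt and 84.4, 103, 96.6 and 90.1 CPM in NFKBIE-ko libraries, a rise without overlap (log2 change 0.43 ± 0.08, adjusted p = 0.00101). When only protein-coding transcripts were summed, the rise in Bak1 was 0.31 and not called (adjusted p = 0.0706). Bax had 72.1, 71.3, 68.7 and 93.1 CPM in NFKBIE-wt and 67, 76.6, 81.7 and 84 CPM in NFKBIE-ko libraries. These overlapped, with a log2 change of 0.01 ± 0.11 (adjusted p = 0.938).

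**Figure D3:**
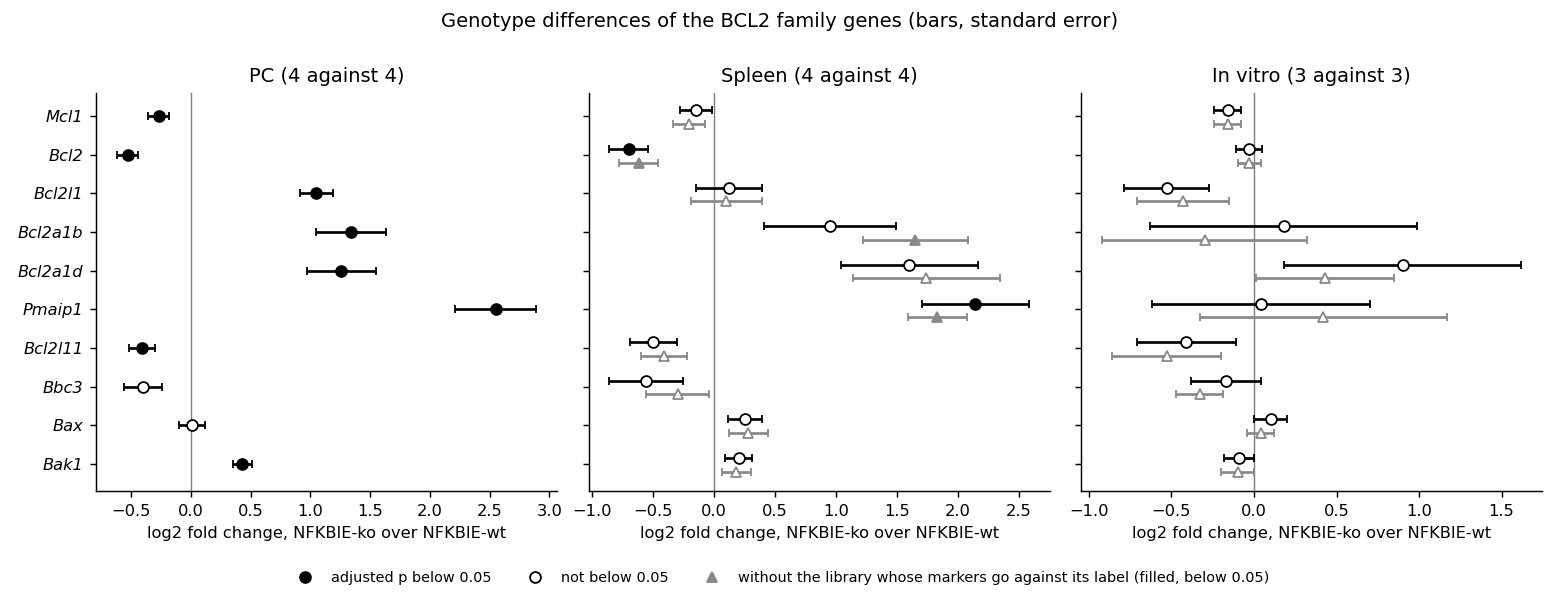
Log2 change of NFKBIE-ko over NFKBIE-wt libraries (x axis) for the 10 genes in PC, spleen and vitro, with bars of 1 SE and filled points for calls. Grey triangles give the values without the library whose markers go against its label. Pmaip1 lies at 2.55 in PC, 2.14 in spleen and 0.04 in vitro, and Bcl2 at -0.53, -0.70 and -0.03.

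The same question in the spleen gave fewer calls. Of all genes 5.48% passed there (2.32% higher, 3.16% lower), and 2 of the 10 did: Pmaip1, higher, and Bcl2, lower. At an unadjusted p below 0.05 the share of all genes was 23%. With NFKBIE-wt spleen replicate 4 left out, 12.2% of all genes passed and 3 of the 10 did, with Bcl2a1b added.

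Pmaip1 had 81.7, 104, 101 and 21.4 CPM in NFKBIE-wt and 401, 458, 238 and 276 CPM in NFKBIE-ko spleens. The genotypes did not overlap, and the lowest value, 21.4 CPM, came from the doubted library, replicate 4. With that library Pmaip1 changed by a log2 value of 2.14 ± 0.44 (adjusted p = 0.0298), and by 1.83 ± 0.24 (adjusted p = 0.00232) without it. Leaving out any other 1 of the spleen libraries gave Pmaip1 an adjusted p from 0.0512 to 0.0924, with log2 changes from 1.97 to 2.32, so the call with 8 libraries did not survive the loss of any 1 of the other 7. Bcl2 had 72.3, 56.1, 67.2 and 78.2 CPM in NFKBIE-wt and 41.1, 54.7, 36 and 39.9 CPM in NFKBIE-ko spleens. It was lower without overlap in NFKBIE-ko, by a log2 change of -0.70 ± 0.16 (adjusted p = 0.0392), or -0.62 ± 0.16 (adjusted p = 0.0411) without the doubted library. The call of Bcl2 was lost without NFKBIE-wt spleen replicate 1 or 3 or NFKBIE-ko spleen replicate 1, 3 or 4 (adjusted p from 0.0965 to 0.131).

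The other survival genes did not pass in spleen with all libraries. Bcl2a1b had 3.86, 2.65, 1.93 and 9.62 CPM in NFKBIE-wt and 13.4, 3.7, 9.8 and 8.73 CPM in NFKBIE-ko spleens. The ranges overlapped through the doubted library, at 9.62 CPM, and through NFKBIE-ko replicate 2, at 3.7 CPM, which lay below NFKBIE-wt replicate 1. The log2 change was 0.95 ± 0.54 (adjusted p = 0.33), and 1.65 ± 0.43 (adjusted p = 0.0368) without the doubted library. Bcl2a1d gave 1.60 ± 0.56 (adjusted p = 0.135, 0.0375 by DESeq2, and 1.74 ± 0.60 with adjusted p = 0.0986 without the doubted library) and, with all libraries, the 3 copies summed 1.17 ± 0.48 (adjusted p = 0.187). Bcl2l1, raised in PC, had 5.88, 8.39, 9.84 and 7.4 CPM in NFKBIE-wt and 9.81, 4.85, 10.1 and 10.2 CPM in NFKBIE-ko spleens. These overlapped (log2 change 0.12 ± 0.27, adjusted p = 0.835), and the single low NFKBIE-ko value was again replicate 2, which also had low erythroid markers (59.5 CPM). Mcl1 gave -0.15 ± 0.13 (adjusted p = 0.537). Without the doubted library Bcl2l1 stood at 0.10 (adjusted p = 0.864) and Mcl1 at -0.21 (adjusted p = 0.335). Markers of other cell types were also measured in spleen: T cell markers summed to 146 to 191 CPM in NFKBIE-ko against 93 to 125 CPM in NFKBIE-wt spleens, cytotoxic cell markers to 35.6 to 99.6 against 2.95 to 11.5 CPM, macrophage markers to 89.4 to 347 against 24.7 to 79.7 CPM and plasma cell markers to 429 to 572 against 502 to 815 CPM. Of the single markers, 1 of 8 T cell and 3 of 5 tested cytotoxic markers were higher by the test, 0 of 8 macrophage markers passed, and 4 of 5 tested plasma cell markers were lower. Without the doubted library 4 T cell, 3 cytotoxic and 2 macrophage markers were higher and 4 plasma cell markers lower. The part of these cells in the spleen values of the 10 genes was not tested.

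Bcl2l11 had 96.4, 63.8, 105 and 110 CPM in NFKBIE-wt and 59.5, 59.3, 70.5 and 80.5 CPM in NFKBIE-ko spleens. The ranges overlapped through NFKBIE-wt replicate 2, and the log2 change of Bcl2l11 was -0.50 ± 0.19 (adjusted p = 0.154), or -0.64 (adjusted p = 0.0432) without that replicate. Bbc3 (-0.56 ± 0.30, adjusted p = 0.301), Bax (0.25 ± 0.14, adjusted p = 0.322) and Bak1 (0.20 ± 0.11, adjusted p = 0.304) overlapped between genotypes and did not pass. Without the doubted library the log2 change of Bbc3 was -0.30 ± 0.26 (adjusted p = 0.501), and Bcl2l11 (-0.41, adjusted p = 0.203), Bax (0.28, adjusted p = 0.295) and Bak1 (0.18, adjusted p = 0.379) did not pass either.

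In culture, away from the mouse, none of the 10 genes passed the edgeR test, 0 had an unadjusted p below 0.05, and DESeq2 called none either. The whole table gave few calls there with all libraries (0.0427% of all genes) and without the library labelled NFKBIE-wt vitro replicate 3 (0.076%). Without NFKBIE-wt vitro replicate 2, however, 6.52% of all genes passed, and 0 of the 10. With all libraries 9.6% of all genes had an unadjusted p below 0.05. Pmaip1 had 10.5, 73.1 and 77.8 CPM in NFKBIE-wt and 61.6, 58.9 and 46.8 CPM in NFKBIE-ko cultures. The NFKBIE-wt cultures enclosed the NFKBIE-ko ones, with a log2 change of 0.04 ± 0.66 (adjusted p = 0.98), or 0.42 ± 0.75 (adjusted p = 0.876) without the doubted library, so a difference of moderate size was not detectable. Bcl2 was tight at 79.3, 73.7 and 75.7 CPM in NFKBIE-wt and 72.8, 77.6 and 74.4 CPM in NFKBIE-ko cultures. These overlapped, with a log2 change of -0.03 ± 0.08 (adjusted p = 0.853). Bcl2l1 gave -0.53 ± 0.26 (adjusted p = 0.537), from 11.1, 6.38 and 10.5 to 5.81, 7.51 and 6.15 CPM. Mcl1 was lower in every NFKBIE-ko culture (1030, 1050 and 970 CPM) than in every NFKBIE-wt culture (1140, 1130 and 1110 CPM) at -0.16 ± 0.08 (adjusted p = 0.537). Bcl2a1b changed its sign, from 0.18 ± 0.81 to -0.30 ± 0.62, when the doubted library was left out. The remaining genes had log2 changes from -0.41 (Bcl2l11) to 0.90 (Bcl2a1d), and from -0.53 (Bcl2l11) to 0.43 (Bcl2a1d) without the doubted library. Bcl2l1 was then at -0.43 (adjusted p = 0.639) and Mcl1 at -0.16 (adjusted p = 0.564).

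Whether the genotype difference itself depended on where the cells had been was tested as an interaction in the fit of all 22 libraries. Between PC and vitro 4.9% of all genes passed, and 2 of the 10, Bcl2l1 and Bak1, both with the higher NFKBIE-ko to NFKBIE-wt ratio in PC. The difference of log2 changes was 1.59 ± 0.35 for Bcl2l1 (adjusted p = 0.0186) and 0.53 ± 0.13 for Bak1 (adjusted p = 0.0333), and 1.48 (adjusted p = 0.025) and 0.53 (adjusted p = 0.0351) without both doubted libraries, where 6.1% of all genes passed. For Bcl2l1 the call was lost without NFKBIE-ko vitro replicate 1 or 3 (adjusted p = 0.065 and 0.0607). For Bak1 it was lost without any 1 of NFKBIE-wt vitro replicates 1 and 3, NFKBIE-wt PC replicates 2 and 3, NFKBIE-ko vitro replicates 1, 2 and 3 and NFKBIE-ko PC replicates 2 and 3 (adjusted p from 0.0515 to 0.0916). Pmaip1 gave a larger but less precise difference of 2.50 ± 0.76 (adjusted p = 0.0627), called by DESeq2 (2.53, adjusted p = 0.00768 for Pmaip1) and without NFKBIE-wt vitro replicate 1 (2.99, adjusted p = 0.0113).

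Between spleen and PC (4.9% of all genes) and between spleen and vitro (0.443% of all genes) none of the 10 passed in edgeR. An unadjusted p below 0.05 was found in 1 of the 10 for the former (20.4% of all genes), Bcl2l1, whose rise in PC was larger than in spleen by a log2 value of 0.93 ± 0.32 (spleen minus PC -0.93, adjusted p = 0.0969). DESeq2 called that gene (-0.94, adjusted p = 0.0475 for Bcl2l1). For the latter (15.9% of all genes) there were 3, Bak1, Bcl2 (-0.66 ± 0.18, adjusted p = 0.0859, and 0.0209 by DESeq2 for Bcl2) and Pmaip1 (2.09 ± 0.75, adjusted p = 0.168). Without NFKBIE-wt or NFKBIE-ko spleen replicate 2 Bcl2 passed (adjusted p = 0.0482 and 0.0303), and without NFKBIE-wt vitro replicate 1 Pmaip1 did (adjusted p = 0.0484). For Pmaip1 the changes in PC and spleen, 2.55 and 2.14, differed by -0.41 ± 0.69 (adjusted p = 0.8). Without both doubted libraries none of the 10 passed in edgeR in either contrast (8.23% and 0.938% of all genes).

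Looked at by compartment within each genotype, Bcl2l11 and Bbc3 moved in opposite directions. These contrasts use the fit of all 22 libraries, and the PC and spleen libraries were not linked to single mice in the labels. Between spleen and PC, 35.5% of all genes passed in NFKBIE-wt and 51.2% in NFKBIE-ko cells, and 3 and 4 of the 10 did. Bcl2l11 was higher in spleen by a log2 value of 1.19 ± 0.21 in NFKBIE-wt (adjusted p = 0.000215) and 1.09 in NFKBIE-ko cells (adjusted p = 0.000234), with PC values of 36.9 to 52.1 and 29.7 to 33.2 CPM and spleen values of 63.8 to 110 and 59.3 to 80.5 CPM. Bbc3 was lower in spleen by -1.28 ± 0.23 (adjusted p = 0.000311) and -1.44 (adjusted p = 4.45e-05), with spleen values of 4.36 to 9.39 CPM in NFKBIE-wt and 3.46 to 5.77 CPM in NFKBIE-ko cells. In neither gene did spleen and PC overlap. Bcl2 was lower in spleen in both genotypes (-0.34 ± 0.12, adjusted p = 0.034, and -0.51, adjusted p = 0.00152), a call lost in NFKBIE-wt without PC replicate 1 or 3 or spleen replicate 2 or 3 (adjusted p from 0.0662 to 0.125 for Bcl2). Bcl2l1 was lower in spleen in NFKBIE-ko cells (-0.98 ± 0.23, adjusted p = 0.00126). Without both doubted libraries 5 of the 10 passed in NFKBIE-wt cells (38.9% of all genes), the added ones being Bcl2a1b, lower in spleen (-1.65, adjusted p = 0.0133), and Pmaip1, higher in spleen (1.27, adjusted p = 0.029). In NFKBIE-ko cells the fit without those NFKBIE-wt libraries also called 5 (57.8% of all genes), with Bcl2a1b lower in spleen at -1.33 (adjusted p = 0.0113, against 0.0625 with them).

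PC and culture differed in the same pair of BH3-only genes, with 34.1% of all genes passing in NFKBIE-wt and 48% in NFKBIE-ko cells, and 3 and 6 of the 10. Bcl2l11 was lower in PC than in vitro by -1.31 ± 0.22 (adjusted p = 0.000204) in NFKBIE-wt and -1.30 (adjusted p = 9.59e-05) in NFKBIE-ko cells. Bbc3 was higher in PC by 0.86 ± 0.25 (adjusted p = 0.0133) and 0.64 (adjusted p = 0.042), a call lost in NFKBIE-wt without vitro replicate 3 (0.69, adjusted p = 0.0545 for Bbc3) and in NFKBIE-ko without vitro replicate 1, 2 or 3 or PC replicate 3 or 4 (adjusted p from 0.0806 to 0.111 for Bbc3). Bcl2l1 and Pmaip1 were higher in PC than in culture in NFKBIE-ko cells (1.38 ± 0.25, adjusted p = 0.000198, and 2.03 ± 0.56, adjusted p = 0.00599). Bak1 was lower in PC than in vitro in NFKBIE-wt (-0.26 ± 0.09, adjusted p = 0.0385) and higher in NFKBIE-ko cells (0.27, adjusted p = 0.0264), but neither call was stable. The first was not made by DESeq2 (-0.21, adjusted p = 0.0919 for Bak1) or without any 1 of NFKBIE-wt vitro replicate 1 and NFKBIE-wt PC replicates 1 to 4 (adjusted p from 0.0581 to 0.215), and the second was lost without NFKBIE-ko vitro replicate 1 or 2 or NFKBIE-ko PC replicate 2 (adjusted p from 0.0536 to 0.0821). Bcl2 in NFKBIE-ko cells was 0.33 lower in PC on the log2 scale (-0.33, adjusted p = 0.0417), a call lost without any 1 of the 7 NFKBIE-ko libraries compared (adjusted p from 0.0529 to 0.117 for Bcl2). Without both doubted libraries 3 of the 10 passed in NFKBIE-wt (42.9% of all genes), with Bcl2a1d lower in PC (-1.39, adjusted p = 0.0393) and Bak1 not called (adjusted p = 0.087), and 5 in NFKBIE-ko cells (52.9% of all genes), with Bcl2 not called (adjusted p = 0.052).

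Between spleen and culture the genotypes gave different counts, though the difference of counts was not itself tested. In NFKBIE-wt cells edgeR called no gene of the table (0% of all genes, 7.84% and 2 of the 10 at an unadjusted p below 0.05) with both doubted libraries included. Without them 26.2% of all genes passed and 3 of the 10 were lower in spleen, Bcl2a1b (-2.47, adjusted p = 0.00306), Bcl2a1d (-1.93, adjusted p = 0.0179) and Bbc3 (-0.81, adjusted p = 0.0197). In NFKBIE-ko cells 30.3% of all genes passed and 3 of the 10 did: Bcl2 was lower in spleen (-0.84 ± 0.13, adjusted p = 0.000351), Bbc3 was lower (-0.80 ± 0.25, adjusted p = 0.0203) and Pmaip1 was higher (2.59 ± 0.58, adjusted p = 0.00361). The call of Bbc3 was lost without NFKBIE-ko vitro replicate 2 or 3 or NFKBIE-ko spleen replicate 3 or 4 (adjusted p from 0.0529 to 0.0642 for Bbc3). Without both doubted libraries, which are NFKBIE-wt and bear on the spread only, 4 of the 10 passed (39% of all genes), with Bak1 added, higher in spleen (0.28, adjusted p = 0.0293).

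**Figure D4:**
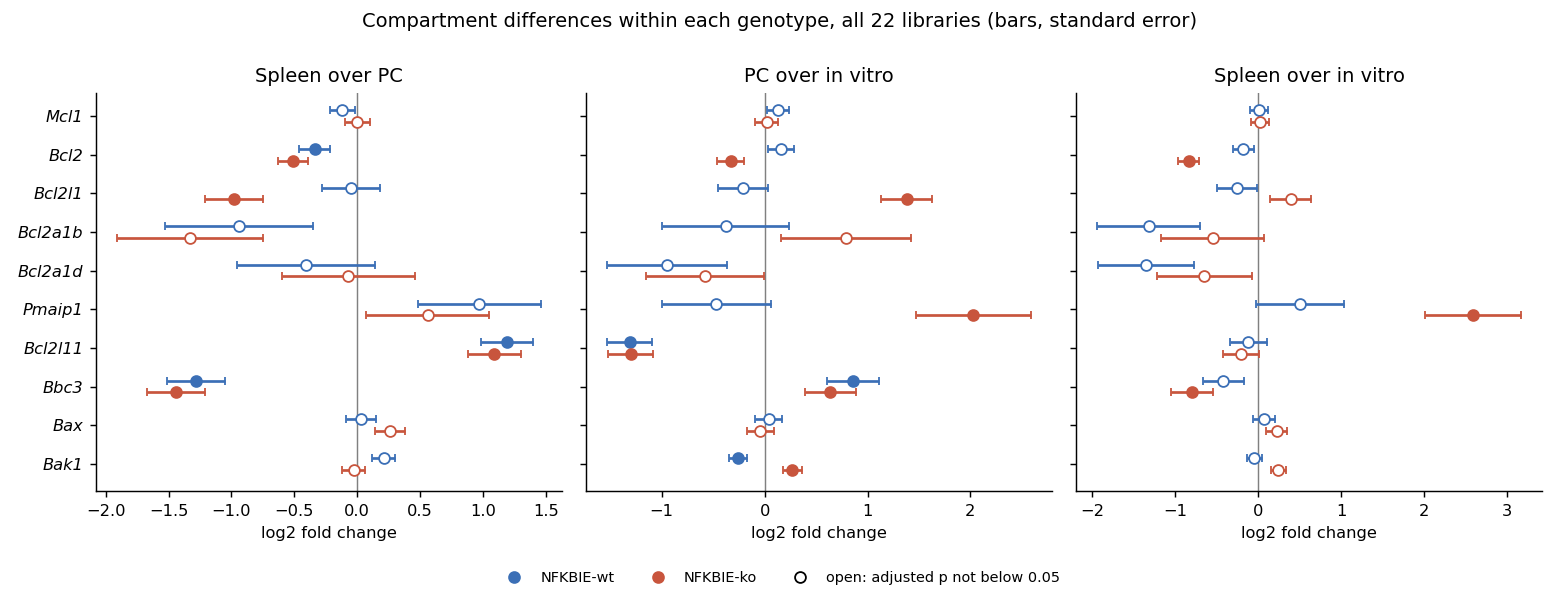
Log2 differences between compartments (x axis) for the 10 genes, from the fit of all 22 libraries, drawn apart for NFKBIE-wt and NFKBIE-ko cells with bars of 1 SE and filled points for calls. Bcl2l11 lies at 1.19 and 1.09 for spleen over PC and Bbc3 at -1.28 and -1.44, on opposite sides of 0.

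At the level of single transcripts, 23 of the 34 had a mean of 1 CPM or more, and in PC 24 were tested and 5 passed, where 13% of all transcripts did. They were the main Bcl2 transcript (-0.48 ± 0.09, adjusted p = 0.00961) and the short Bcl2l11 transcript (-1.55 ± 0.21, adjusted p = 0.00281), both lower, and the main Pmaip1 transcript (2.58 ± 0.32, adjusted p = 0.00195) and the single transcripts of Bcl2a1b (1.39, adjusted p = 0.0254) and Bcl2a1d (1.31, adjusted p = 0.0426), all higher. In spleen 1 of 25 passed (0.354% of all transcripts), again the short Bcl2l11 transcript, and in vitro none of 24 in edgeR (0% of all transcripts), where 5.32% of all transcripts and 0 of the 24 had an unadjusted p below 0.05.

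Of the Bcl2l11 transcripts tested, 5 in PC and 6 in spleen, only the short one was called. The middle transcript by coding length has 423 coding bases, stop codon included, and holds the later coding blocks that the short one lacks. Its log2 change was 0.28 ± 0.50 in PC (adjusted p = 0.792) and 0.08 ± 0.35 in spleen (adjusted p = 0.965, edgeR). The short transcript had 10, 7.62, 10.1 and 8.97 CPM in NFKBIE-wt PC and 4.17, 2.82, 3.09 and 2.52 CPM in NFKBIE-ko PC. In spleen it had 25.1, 21.2, 24.6 and 26.4 CPM in NFKBIE-wt and 9.38, 9.14, 11.6 and 11.4 CPM in NFKBIE-ko libraries. Neither compartment showed overlap, and the spleen change was -1.25 ± 0.16 (adjusted p = 0.0244), or -1.22 (adjusted p = 0.0287) with the doubted replicate 4 left out. Without that library the main Pmaip1 transcript passed in spleen as well (1.85 ± 0.25, adjusted p = 0.0287), where 0.868% of all transcripts did, an alternative chosen after seeing the data. The long transcript had 22.8, 21.6, 31.3 and 26 CPM in NFKBIE-wt PC and 19.6, 25.9, 23.6 and 25.2 CPM in NFKBIE-ko PC. Its genotypes overlapped in PC (-0.13 ± 0.14, adjusted p = 0.633) and in spleen (-0.24, adjusted p = 0.747, or -0.14, adjusted p = 0.875, without the doubted library), and the difference between the transcripts' changes was not tested. In culture the short transcript had 42.6, 9.11 and 21.2 CPM in NFKBIE-wt and 10.6, 9.42 and 15.1 CPM in NFKBIE-ko libraries, which overlapped (-1.07 ± 0.56, adjusted p = 0.863, or -1.15 ± 0.66, adjusted p = 0.928, without the doubted library). These values are estimates of how reads divide between transcripts.

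**Figure D5:**
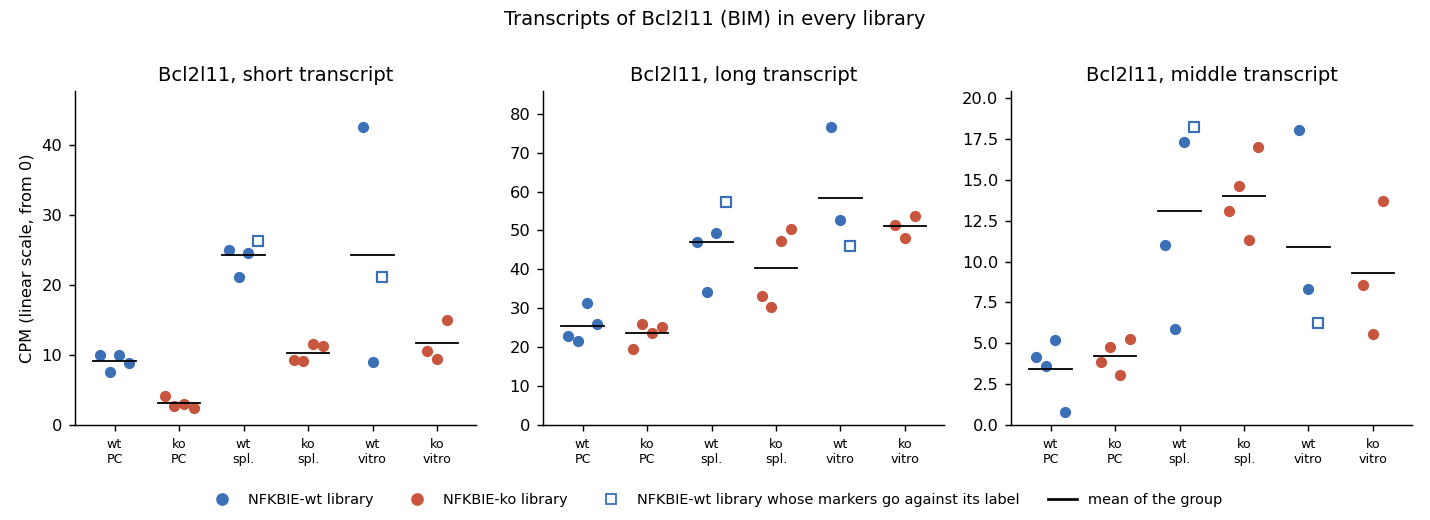
CPM of the short, long and middle transcripts of Bcl2l11, by coding length (y axis, linear, from 0) in every library of the 6 groups, with a line at each group mean and open squares for the 2 libraries whose markers go against their labels. The short transcript lies at 2.52 to 4.17 CPM in NFKBIE-ko PC and 7.62 to 10.1 CPM in NFKBIE-wt PC, while the long one overlaps.

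For Bcl2l1 the reads divided between 2 protein-coding transcripts with different start sites, 152673655 for ENSMUST00000007803 and 152673273 for ENSMUST00000109820 on chromosome 2. In NFKBIE-ko PC the transcript from 152673273 had 7.68, 4.8, 5.02 and 8.09 CPM against 1.59, 1.07, 0 and 1.84 CPM in NFKBIE-wt PC. The transcript from 152673655 had 7.9, 16, 11.9 and 6.28 CPM in NFKBIE-ko PC against 6.82, 5.52, 7.43 and 6.87 CPM. The former did not overlap between genotypes and the latter did, yet neither passed alone (adjusted p = 0.122 and 0.201), although the gene did.

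Promoters of the family were searched for a κB site, the DNA element that NF-κB binds, in RefSeq windows of 300 bases on GRCm38.p6 that run over an annotated start, on both strands. Pmaip1 was left out of this search, and the other 9 genes had 14 windows. Of these, 2 windows held a match, beside 8.46% of 32851 windows of all genes. The matches were in 1 window of Bcl2l1 and in 1 of Bbc3, whose 2 matches overlapped each other. Bbc3 did not pass the test in PC (log2 change -0.4). The Bcl2l1 window, chr2:152830668-152830967 on the minus strand, is printed because its gene rose in PC, with the match in capitals at 242 bases before the start.
Bcl2l1: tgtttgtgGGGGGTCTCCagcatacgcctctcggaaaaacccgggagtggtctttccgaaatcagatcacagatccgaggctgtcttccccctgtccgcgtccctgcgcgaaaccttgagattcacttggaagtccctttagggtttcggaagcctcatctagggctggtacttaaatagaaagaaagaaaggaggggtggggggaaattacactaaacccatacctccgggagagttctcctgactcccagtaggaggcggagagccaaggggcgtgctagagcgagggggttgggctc
The other windows of Bcl2l1 held none, and a match describes letters only. The printed window is on GRCm38.p6 and was not matched to the Bcl2l1 transcript start sites given above on GRCm39. Whether reads start at this window was not tested.

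Around the 10 genes, other parts of the death pathway were read from 4 lists, beside the 22.5% of all genes that rose and the 20.9% that fell in PC. Of 11 further BCL2 family genes tested in PC, 4 rose and 4 fell (median log2 change 0.10). Bmf, a BH3-only gene, fell by the most of them, from 132 ± 35.7 to 41.5 ± 11.1 CPM (SD, n = 4, log2 change -1.68, adjusted p = 0.00111), and Bid, which links death receptors to the mitochondrion, by -0.29. Bcl2l2 (BCL-w), a survival gene, rose by 1.36 (adjusted p = 0.000147) and Bnip3, a mitophagy gene, by 0.96. Of 16 genes of the mitochondrial death machinery 7 rose and 3 fell (median 0.22), among them Casp6 (0.74), a caspase, Cycs (0.62), the gene of cytochrome c, and Diablo (-0.54), an inhibitor of IAP proteins. Of 14 death receptor and IAP genes 7 rose and none fell (median 0.34), including the death receptor Fas (1.09) and the adaptor Traf1 (0.80). Of 12 genes listed for turnover of BCL2 family proteins or regulation of BH3-only proteins 1 rose and 3 fell (median 0.04). Among them were Ddit3, a stress-induced transcription factor, at -1.61 and Foxo1, a transcription factor, at -0.75.

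In spleen and in vitro none of the 54 and 52 genes tested from these 4 lists passed the edgeR test, with 16 and 7 at an unadjusted p below 0.05, beside 23% and 9.6% of all genes. In vitro none passed without the doubted library either. In spleen with the doubted replicate 4 left out, an alternative chosen after seeing the data, Bmf fell (-2.64 ± 0.26, adjusted p = 0.000718) and Fas (1.87 ± 0.48, adjusted p = 0.0375) and Traf1 (0.74 ± 0.12, adjusted p = 0.00584) rose. With that library the same genes stood at -2.28 (Bmf, adjusted p = 0.0654), 1.25 (Fas, adjusted p = 0.229) and 0.54 (Traf1, adjusted p = 0.108).

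Over all 22 libraries the genes whose log2 CPM ran most like each of the 10, by Pearson's r among 9793 genes, were Ranbp6 for Bcl2 (0.934), Lamtor3 for Bcl2l1 (0.837), Cep89 for Mcl1 (0.795), Cyb561a3 for Bcl2a1b (0.918), Pgam1 for Bcl2a1d (0.925), Blm for Bcl2l11 (0.941), Gpat3 for Bbc3 (0.936), Casp6 for Pmaip1 (0.906), Cisd1 for Bax (0.894) and Rab1a for Bak1 (0.859). Among the 10 themselves Bcl2 and Pmaip1 had r = -0.785. Without the 2 doubted libraries that r was -0.788, and the same genes came first for 7 of the 10, while Tug1 (0.943) came before Ranbp6 (0.935) for Bcl2, Adora2a (0.919) before Cyb561a3 (0.909) for Bcl2a1b and Chrnb1 (0.944) before Gpat3 (0.938) for Bbc3. These values describe libraries that share compartment, genotype and admixed cells, and the 22 points are not independent.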

How the data were processed

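RNA-seq was read from 1 table of 62492 transcripts by 22 libraries. The authors deposited estimated counts per transcript, made with Salmon (version 1.8 per the submitters' processing notes) against the GRCm39 mouse transcriptome, and the table keeps transcripts above 0 in at least 5 libraries. Values were not whole in 69.5% of cells, so they were rounded, matched by transcript identifier to GENCODE (62147 matched; the others held 0.619% of counts) and summed into 17023 genes. All 22 columns were mapped to a library by name. Library totals ranged from 24036763 to 26581304, and all 30 replicate pairs differed by more than counting noise (chi-square per degree of freedom 7.12 to 213), so no library was counted as a repeat of another.

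Genes were tested with edgeR 4.0.16 (R 4.3.3), using filterByExpr, TMM scaling and the robust quasi-likelihood test with Benjamini-Hochberg adjustment over all genes tested and a threshold of 0.05. Genotypes were compared within each compartment, and interactions and compartments in 1 fit of all 22 libraries with 6 group means. The SE of an edgeR log2 change was derived as its absolute value divided by the square root of the test's F statistic. It is not an estimate printed by the fit. DESeq2 1.42.0, other scalings and filters, a fold threshold, protein-coding transcripts, a block on replicate number and the loss of each library were alternatives. CPM use TMM-scaled totals, and TPM were computed from counts and annotated lengths. The likeness of genes used log2 CPM with a prior count of 1 and genes at a mean of 5 CPM or more. The test was also run on simulated counts that had the same spread for every gene and group. Real libraries differ in this, so that run gives no error rate for these data. The genes and lists, and the rule of naming all 10 genes, the list members quoted and the most correlated gene for each, were chosen with earlier results of these data known. Per the study's methods each genotype went into 5 recipients, of which 4 samples per group were sequenced, and cultures came from 3 mice and were kept apart; the labels do not tie replicate numbers to mice, and p-values measure the spread between these libraries.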

Additional observations from a re-analysis of the deposited data

Results flagged for a closer look

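Of 40 sets of 4 libraries examined for a value apart from the others by Dixon's test, 2 held one, where chance gives about 1 in 20. Bcl2l1 in NFKBIE-ko spleen replicate 2 was 4.85 CPM, with the nearest other library at 9.81 CPM and a gap of 0.934 of the range. The same library had the lowest Bcl2a1b of its group (3.7 CPM) and the lowest Nfkbie (54.8 CPM). Bax in NFKBIE-wt PC replicate 4 was 93.1 CPM, with the nearest at 72.1 CPM and a gap of 0.862 of the range.

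The interaction test between PC and culture called Bcl2l1 and Bak1, beside 4.9% of all genes. The log2 change of Bcl2l1 was larger in PC by 1.59 and that of Bak1 by 0.53. Leaving out 1 library at a time lost the call of Bcl2l1 in 2 of 14 fits and that of Bak1 in 9 of 14. With the replicate number as a block neither gene was called.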

How the results depend on the processing

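Over the log2 changes of the 10 genes in all contrasts, 608 values under other settings kept their direction and side of the threshold, 20 lost a call, 19 gained one and 19 changed sign, and on leaving out 1 library 973 kept both, 58 lost a call, 15 gained one and 54 changed sign. With protein-coding transcripts only, Bax in PC was at 0. Without both doubted libraries the spleen minus PC difference was 0.32 for Bcl2a1b, 0.01 for Bcl2l11 and 0.10 for Bbc3, the spleen minus vitro difference -0.04 for Mcl1, 0.13 for Bcl2l11 and 0.04 for Bbc3, and spleen against PC 0 for Bax in NFKBIE-wt and 0 for Mcl1 in NFKBIE-ko cells. With no filter Bcl2l11 in PC minus vitro and Mcl1 in spleen against PC (NFKBIE-ko) were at 0. Under DESeq2 and under its size factors Bax was at -0.02 for spleen against PC in NFKBIE-wt and 0.04 for PC against vitro in NFKBIE-ko cells. With the replicate block Mcl1 was at -0.01 (spleen minus vitro), Bcl2l11 at -0.06 (PC minus vitro), and Pmaip1 at 0.03 and Bax at -0.02 (PC against vitro, NFKBIE-wt). None of these values passed the test.

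For counts of the 10 genes called, the added requirement of a doubling or halving left 4 in PC (13.4% of all genes) and 1 in spleen (3%). The fit of all 22 libraries left 4 in PC (23.6% of all genes). DESeq2 called 1 gene in each of the spleen minus PC (7.27% of all genes) and spleen minus vitro (4.71%) differences. In culture edgeR called 5 genes of the whole table, DESeq2 224 and the fit of all 22 libraries 277, none of them among the 10. Leaving out both doubted libraries gave 5 for spleen against PC (38.9% of all genes) and 3 for spleen against vitro (26.2%) in NFKBIE-wt cells. Replicate numbers, which the labels do not tie to mice, did not pair libraries by the data: same-numbered NFKBIE-ko and NFKBIE-wt libraries had correlations of residuals from -0.269 to 0.0699 in PC, from -0.349 to 0.0226 in spleen and from -0.00513 to 0.203 in vitro, and the correlations of same-numbered PC and spleen libraries ran from -0.0596 to 0.281 in NFKBIE-ko and -0.187 to 0.257 in NFKBIE-wt cells and those of NFKBIE-wt spleen and vitro from -0.388 to 0.486, so no set had every pair over 0.1. With the replicate number as a block, 0 of the 10 were called in spleen (0.737% of all genes) and 0 in the PC minus vitro difference (0.598% of all genes).

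Leaving out 1 library at a time gave counts from 7 to 8 in PC, 0 to 3 in spleen, 0 to 0 in vitro, 0 to 1 for spleen minus vitro and 0 to 2 for PC minus vitro. Over all genes, the share passing in the same fits ran from 37% to 43.5% in PC and 1.07% to 12.2% in spleen. It ran from 0% to 6.52% in vitro, 0.0362% to 5.05% for spleen minus vitro and 0.384% to 8.37% for PC minus vitro. In NFKBIE-wt cells the counts ran from 2 to 5 for spleen against PC (28.1% to 37.1% of all genes). For spleen against vitro they ran from 0 to 1 (0% to 5.56% of all genes). In NFKBIE-ko cells they ran from 3 to 5 for PC against vitro (39.3% to 44.8% of all genes). For transcripts in spleen the count was 2 without the doubted library and 1 with it. The spleen count was 0 without NFKBIE-wt replicate 1 or 3 or NFKBIE-ko replicate 1, 3 or 4. Log2 values that changed sign on leaving out 1 library had these ranges. For genotype they were -0.04 to 0.12 (Bax, PC), -0.30 to 1.66 (Bcl2a1b, vitro) and -0.44 to 0.42 (Pmaip1, vitro). For spleen minus PC they were -0.72 to 0.30 (Bcl2a1b) and -0.32 to 0.08 (Bbc3). For spleen minus vitro they were -0.06 to 0.07 (Mcl1), -0.69 to 1.47 (Bcl2a1b), -0.28 to 1.18 (Bcl2a1d) and -0.50 to 0.12 (Bcl2l11). For PC minus vitro they were -0.29 to 1.65 (Bcl2a1b), -0.61 to 0.85 (Bcl2a1d), -0.39 to 0.22 (Bcl2l11) and -0.17 to 0.04 (Bax). For spleen against PC they were -0.18 to 0.07 (Bcl2l1) and -0.04 to 0.13 (Bax) in NFKBIE-wt, and -0.12 to 0.05 (Mcl1) and -0.40 to 0.18 (Bcl2a1d) in NFKBIE-ko cells. For spleen against vitro they were -0.05 to 0.08 (Mcl1), -2.01 to 0.14 (Bcl2a1b), -0.33 to 0.29 (Bcl2l11), 0 to 0.16 (Bax) and -0.12 to 0.04 (Bak1) in NFKBIE-wt, and -0.04 to 0.07 (Mcl1) in NFKBIE-ko cells. For PC against vitro they were -0.87 to 1.08 (Bcl2a1b), -1.43 to 0.03 (Bcl2a1d) and -0.05 to 0.13 (Bax) in NFKBIE-wt, and -0.02 to 0.13 (Mcl1) and -0.06 to 0.02 (Bax) in NFKBIE-ko cells. The cause of these changes was not tested. Leaving out 1 of 3 cultures leaves few degrees of freedom, and the least abundant gene, Bcl2a1d, at 0.347 to 6.11 CPM, carries the largest counting error.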
